A study of Rattus norvegicus with 12 samples.

Results

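Silencing of the zinc transporter gene Slc39a2 in unstimulated neonatal rat ventricular myocytes (NRVMs) is described here across the transcriptome, with emphasis on genes outside lists of interferon-stimulated and extracellular matrix genes. The comparison rests on 6 of the 12 RNA-seq samples of the study, which were picked by their labels alone: 3 untreated samples transfected with siSlc39a2 and 3 untreated samples transfected with the control siRNA, siNeg. Of the 18483 genes in the file, 13967 passed a filter on low counts and were tested. The NRVMs were primary cultures from Sprague-Dawley rats, and the replicates were described as biological ones. Both groups had been transfected with an siRNA, and siSlc39a2 was of a single sequence, so a second siRNA against the gene was not compared. The remaining 6 samples received phenylephrine (PE, a hypertrophic stimulus) for 36 h, starting 12 h after transfection. They enter here only through the shared estimate of the spread and through the comparison of the knockdown with and without PE.

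SLC39 proteins (ZIP transporters) carry zinc into the cytosol, and zinc is a cofactor of many enzymes and of zinc finger transcription factors. Ventricular myocytes draw most of their energy from mitochondrial oxidation of fatty acids, and their beat depends on sodium, potassium and calcium currents that trigger the sarcomere. Under stress they often return to part of the fetal gene programme, with higher natriuretic peptides and a shift in contractile isoforms.

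Slc39a2 stood at 1.97, 1.89 and 2.32 CPM (counts scaled to a common normalized library size) in the siNeg samples and at 0.726, 0.373 and 0.078 CPM in the siSlc39a2 samples. The groups did not overlap, and the log2 fold change was -2.35 (standard error 0.46, adjusted p = 9.8e-04, quasi-likelihood test of edgeR). For Slc39a2 in every sample but siSlc39a2 replicate 1 it was -3.12 and without siSlc39a2 replicate 3 it was -1.85. The gene had few counts in every sample, so the size of the knockdown is less certain than its direction.

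Total counts were between 24065539 and 28436993 per sample. Within each group the spread exceeded that of counting, with chi-square values per degree of freedom between 4.69 and 28.8, and the 2 highest values both involved siNeg replicate 1. In that sample the shortest 10% of transcripts had a median log2 difference of 0.25 from the other siNeg samples, and the longest 10% one of -0.31. The defining cardiomyocyte markers were abundant in all samples, at a summed level of 60250 to 62174 CPM in siNeg and 49366 to 50432 CPM in siSlc39a2. Of the 12 markers 1, Myh6, was called lower by edgeR, but not with limma on FPKM (below). Fibroblast and smooth muscle markers were lower by more. The 12 fibroblast markers summed to 13954 to 18470 CPM in siNeg and 5407 to 5713 CPM in siSlc39a2 (7 of 12 called lower, median log2 fold change -1.27). They include the matrix genes Col1a1, Col1a2, Col3a1, Dcn, Lum, Postn and Dpt, so their sum is not separate from the matrix response. The 12 smooth muscle and pericyte markers summed to 2952 to 3082 CPM and 1353 to 1436 CPM (4 of 12 called lower, median -0.85). Macrophage and leukocyte markers summed to 95 to 130 CPM in siNeg and 50.9 to 64.1 CPM in siSlc39a2 (1 of 12 tested called higher, Aif1 at 1.49, and 2 lower, Lyz2 at -1.10 and Mrc1 at -1.51 on the log2 scale), endothelial markers to 27.5 to 30.7 and 22.5 to 25 CPM, and epicardial and mesothelial markers to 59.7 to 74.2 and 36.2 to 42 CPM (4 called lower and 1 higher of 10). Lymphocyte markers summed to 3.83 to 4.58 CPM in siNeg and 1.75 to 2.71 CPM in siSlc39a2, with Cd79a and Cd3e at no more than 3 counts in any sample. Of the 3 lymphocyte markers tested, Lck was called higher (log2 fold change 1.96), Cd4 lower (-1.66), and Cd8a was not called (0.22). In bulk RNA, fewer cells of a type and less RNA per cell cannot be told apart.

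**Figure D1:**
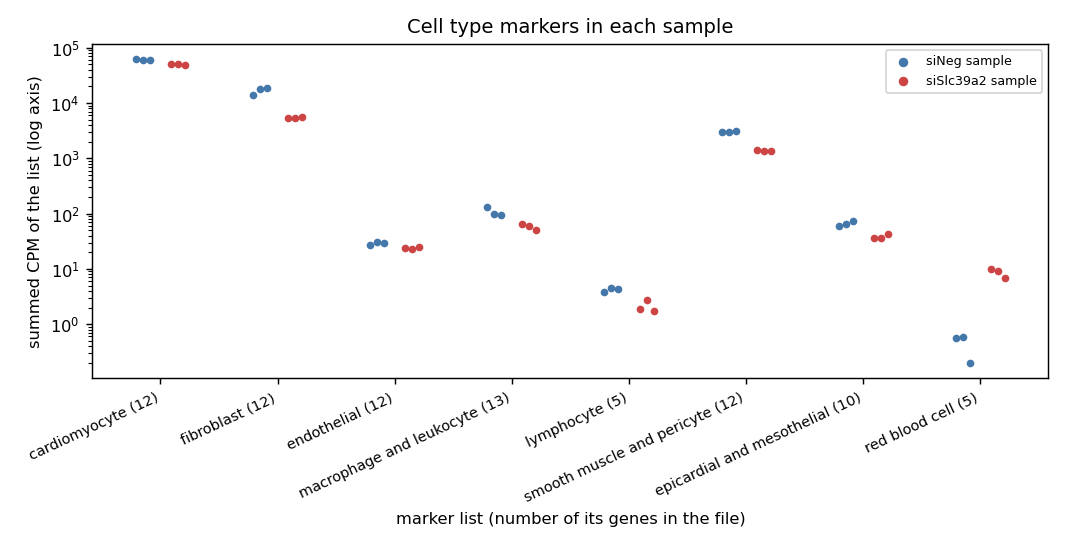
Summed CPM (log axis) of 8 cell type marker lists in each of the 6 samples, with the number of list genes in the file in brackets. Fibroblast markers lie at 13954 to 18470 CPM in siNeg (blue) and 5407 to 5713 CPM in siSlc39a2 (red), while cardiomyocyte markers lie at 60250 to 62174 and 49366 to 50432 CPM.

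Which genes outside lists of interferon-stimulated and matrix genes differ after silencing was asked first by counting. A gene was called where its adjusted p was under 0.05 and its log2 fold change beyond 1 in either direction. By that rule 638 genes (4.57% of those tested) were higher in siSlc39a2 and 728 (5.21%) were lower, 9.78% in all. Of a list of interferon-stimulated genes, 144 of 167 tested were higher, and of a matrix list, 77 of 162 were lower. With both lists set aside, 1142 called genes remained, 492 higher and 650 lower. A gene outside the interferon list can still be induced by interferon, and whether these genes depend on it was not tested. The 1142 genes changed by less than the listed interferon genes, with a median log2 fold change of 1.63 for the higher genes, against 3.94 for the 144 interferon genes, and -1.39 for the lower genes. At the adjusted p alone 6873 genes (49.2%) passed, 22.8% higher and 26.4% lower, of which 1364 higher and 1738 lower genes had an absolute log2 fold change below 0.5. Many differences were small and fewer were large, and 146 of the 151 called genes past an absolute log2 fold change of 4 were higher.

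Called genes were then sorted by their level in the group where they were low. A gene was taken as near zero where none of the 3 samples had more than 3 counts, as low where the mean was otherwise below 1 CPM, and as graded from 1 CPM upwards. These classes use the counts themselves and are descriptions. Of the 492 higher genes outside both lists, 64 (13%) were near zero in siNeg, 180 (36.6%) were low and 248 (50.4%) were graded. Among the 144 higher interferon genes, 11 (7.64%) were near zero and 112 (77.8%) were graded. Together the 64 near zero genes rose from 1.7, 1.74 and 2.29 CPM in the siNeg samples to 157, 131 and 146 CPM in the siSlc39a2 samples. The 248 graded genes rose from 3994, 4101 and 4088 CPM to 13031, 12598 and 12645 CPM. Genes near zero were therefore a small part of the added RNA outside the interferon list. Measured against 3 counts per siNeg sample, their folds were at least 7.57 at the median and at least 120 for the highest, while for the lowest the bound was 0.624 and sets no fold. Many of them stayed scarce: their median level in siSlc39a2 was 0.884 CPM, and 31 of the 64 reached 1 CPM. Of all 75 near zero genes, 18 had no count in any siNeg sample and 70 had more than 3 counts in every siSlc39a2 sample. The limit of 3 counts is a choice, and 41 further higher genes had at most 6 counts in each siNeg sample. Lower genes seldom reached zero. Only 9 of the 650 lower genes outside both lists were near zero in siSlc39a2, 288 were low and 353 were graded.

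**Figure D2:**
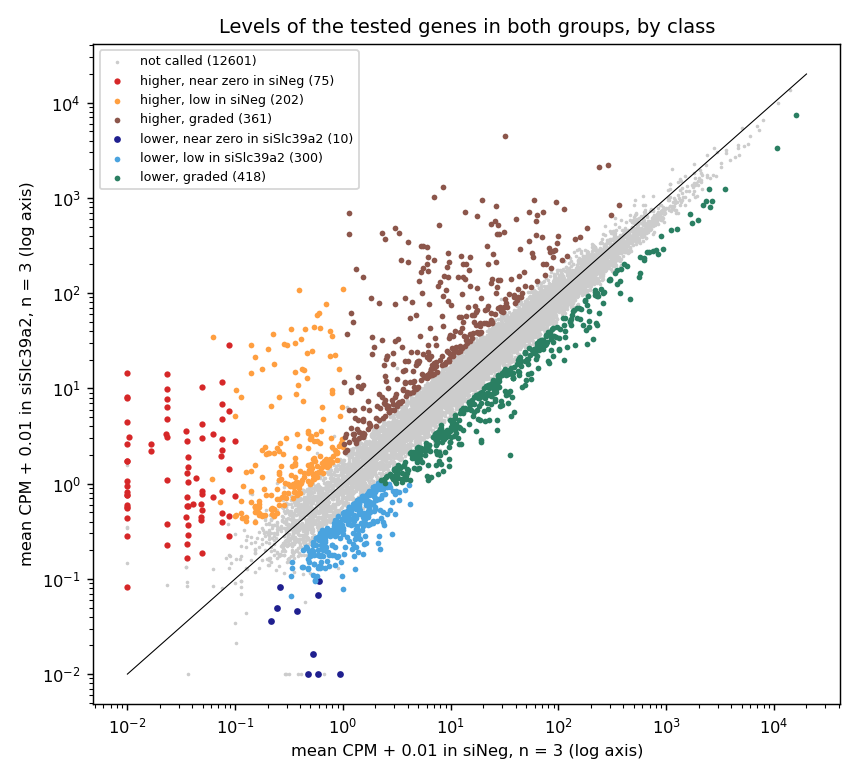
Mean CPM + 0.01 of each of the 13967 tested genes in siSlc39a2 against siNeg (n = 3 each, both axes log), coloured by class, with the line of equal levels. The 75 genes raised from near zero form columns at the left edge below 0.12 CPM + 0.01 in siNeg, the 361 graded higher genes lie above the line at all levels, and 10 genes fell to near zero.

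Among near zero genes outside both lists with whole counts and a symbol of their own, the one with the highest level in siSlc39a2 was Tmprss2, a membrane serine protease of epithelia, at 0.0395, 0 and 0 CPM in siNeg and 9.23, 7.59 and 12.4 CPM in siSlc39a2. Measured against 3 counts per siNeg sample it was at least 83.3-fold higher. Klrk1, which encodes the NKG2D receptor of natural killer and T cells, stood at 0.0395, 0 and 0 CPM and at 7.71, 7.32 and 8.3 CPM, at least 66.6-fold higher, and the lymphocyte markers given above went both ways. Kcnt1, a sodium-activated potassium channel subunit, had 0.079, 0 and 0.118 CPM in siNeg and 7.05, 7.21 and 6.47 CPM in siSlc39a2, at least 59.2-fold higher. The siSlc39a2 samples of Klrk1 and Kcnt1 lay close together, and those of Tmprss2 were further apart. The gap to the siNeg samples follows from choosing genes with few siNeg counts and a high siSlc39a2 level. Misp, an actin-binding protein of the mitotic spindle, was at least 48.9-fold higher, Apol11a of the apolipoprotein L family at least 40.4-fold, and the chemokine gene Ccl22 at least 40.3-fold. Acod1, whose enzyme makes itaconate in activated macrophages, had 0.0395, 0.0379 and 0.0788 CPM in siNeg and 4.01, 3.12 and 2.85 CPM in siSlc39a2, at least 28.5-fold higher. Ubd, a ubiquitin-like modifier, was at least 26.2-fold higher. Acod1 and Ubd are known to be induced by inflammatory cytokines in some cells and were not in the interferon list used.

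Genes for class II antigen presentation, which carries peptides to helper T cells, were among those raised from near zero. RT1-Ba had 0.0395, 0.0379 and 0.0394 CPM in siNeg and 5.32, 4.71 and 2.69 CPM in siSlc39a2, at least 36.3-fold higher, and RT1-Da was at least 30.8-fold higher. Followed up after their values were seen, RT1-Db1 was at least 24-fold higher and RT1-Bb rose from 0.116 to 1.3 CPM (log2 fold change 3.43). Ciita, the class II transactivator, stood at 2.86 ± 0.177 and 2.99 ± 0.371 CPM (SD, n = 3; log2 fold change 0.07, adjusted p = 0.762 from edgeR). Cd74, the class II invariant chain, was at 36.6 ± 4.63 and 22 ± 5.05 CPM (log2 fold change -0.73), with reads shared with other genes. Class II genes mark antigen-presenting cells. The macrophage and leukocyte marker sum was lower in siSlc39a2, with 1 of 12 markers called higher and 2 lower as given above, and the part of such cells was not tested.

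**Figure D3:**
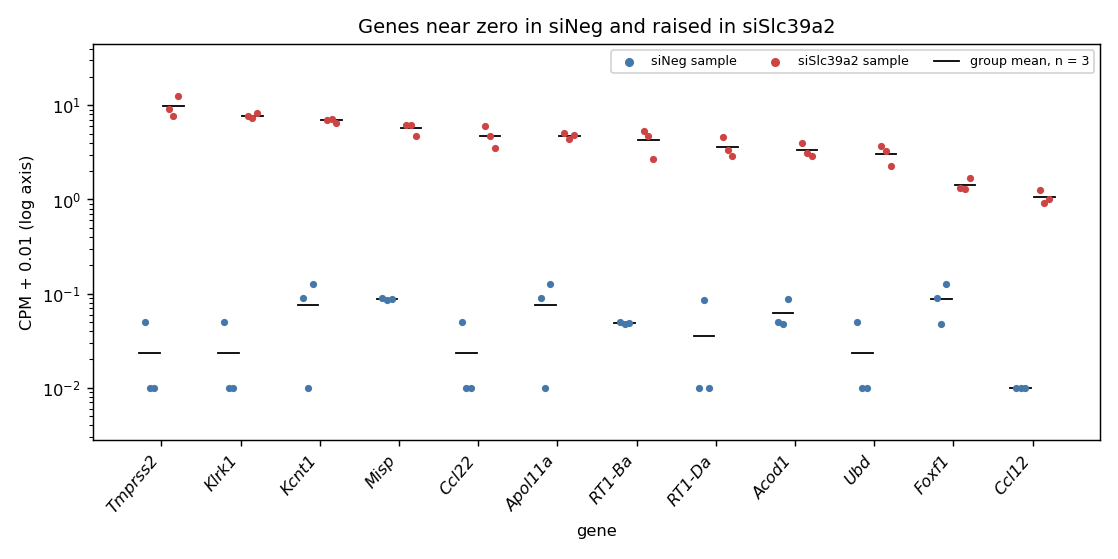
CPM + 0.01 (log axis) in each of the 3 siNeg (blue) and 3 siSlc39a2 (red) samples for the 10 most abundant near zero genes outside the interferon and matrix lists with whole counts and a symbol, with Foxf1 and Ccl12, and group means as lines. All siNeg samples lie at or below 0.118 CPM, as the class requires by its limit of 3 counts, and all siSlc39a2 samples lie at 0.914 CPM or above.

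Promoters were searched for the core of the interferon-stimulated response element, GAAANNGAAA, on both strands, in the 300 bases from 250 before to 50 after the gene start (RefSeq, GRCr8). The core was present in 3.77% of all 27457 promoters of the table and in 2.28% of the 9839 promoters of tested genes that were not called. It was present in 44.3% of the 115 promoters of higher interferon genes. Outside both lists it was present in 7 of 43 promoters (16.3%) of genes raised from near zero, in 16 of 124 (12.9%) of those raised from a low level, in 17 of 188 (9.04%) of graded higher genes and in 6 of 243 (2.47%) of graded lower genes. A match is a string of letters, not a site shown to be bound. Promoters were found for 10832 of the 13967 tested genes. The stretches below are shown because they carry the core in genes raised outside the interferon list, with the core in capitals. They read 5′ to 3′ on the strand of the gene, and TTTCACTTTC is the core on the opposite strand. The stretch of Apol9a holds a further core that overlaps the one in capitals, and the promoter of Plekha4 holds a further core outside the stretch.
Klrk1, near zero in siNeg (chr4:164778469-164778498, minus strand): ttctttacagGAAAATGAAActaatcctat
Apol11a, near zero in siNeg (chr7:111140419-111140448, minus strand): gaactttttcTTTCACTTTCatgcactggc
Apol9a, graded (chr7:111028266-111028295, minus strand): gagatgagagTTTCACTTTCcatttcctgg
Serpinb9, graded (chr17:31640866-31640895, minus strand): ctcctgttacTTTCACTTTCtctaagagcc
Pml, graded (chr8:67554857-67554886, minus strand): acccaatccaGAAATCGAAActgaaccagg
Plekha4, graded (chr1:105142347-105142376, plus strand): cggcagagagGAAAGAGAAActgggagagg

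Among graded genes outside both lists, with whole counts and at least 10 CPM in siNeg, those with the largest increases included 4 of the genes of these promoters. Apol9a rose from 23.7 ± 2.38 to 536 ± 24.5 CPM (SD, n = 3; log2 fold change 4.50). Serpinb9, an inhibitor of granzyme B, rose from 13.5 ± 0.775 to 142 ± 4.46 CPM (3.39), and Pml, which builds nuclear bodies, from 99.8 ± 2.45 to 398 ± 27.5 CPM. Plekha4 and the F-box gene Fbxw17 rose by log2 fold changes of 2.24 and 2.16, and Yipf7, which encodes a Golgi membrane protein, from 17.6 ± 0.852 to 67.2 ± 0.592 CPM (1.93). The largest decreases, among genes with at least 10 CPM in siSlc39a2, included secreted and surface proteins. Serpinf1, an anti-angiogenic serpin, fell from 224 ± 5.82 to 48.8 ± 1.53 CPM (-2.20), and Cpz, a carboxypeptidase with a frizzled domain, from 46.2 ± 1.14 to 10.4 ± 1.14 CPM (-2.16). Islr, Aebp1 and Cemip, the last a hyaluronan-degrading protein, fell by 1.94, 1.86 and 1.89 on the log2 scale. The endocytic receptor gene Lrp1 and the protocadherin gene Dchs1 fell by 1.81 and 1.77. For Cemip, Lrp1 and Dchs1, siNeg replicate 1 was the lowest siNeg sample, at 253, 436 and 72.4 CPM, and still above all siSlc39a2 samples. The fibroblast marker sum, which includes matrix genes, was also lower, and the part of those cells in these falls was not tested.

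Metabolic genes moved little singly and mostly downwards. Of 418 tested, 8 were called higher and 13 lower, 1.91% and 3.11%, both below the shares of all genes, and the median log2 fold change was -0.25 against -0.02 over all genes. At the adjusted p alone, 62 of the 418 were higher and 205 lower, beside 22.8% and 26.4% of all genes. Genes of fatty acid uptake and oxidation had the lowest median of the metabolic lists, -0.48 over 55 genes, with 40 of the 55 lower and 3 higher at the adjusted p alone, the cut that 26.4% and 22.8% of all genes pass, and 4 called. Ucp3, a mitochondrial uncoupling protein of muscle, fell from 26 ± 7.63 to 9.49 ± 2.04 CPM (-1.46), and the fatty acid binding protein gene Fabp4 from 0.996 ± 0.212 to 0.284 ± 0.0831 CPM (-1.79). Core enzymes of the pathway changed by less than the threshold on fold change, and 3 are given as examples chosen after their values were seen. The carnitine transferase gene Cpt1b stood at 1210 ± 77.8 and 742 ± 40.4 CPM (-0.70, reads shared with other genes), the medium-chain dehydrogenase gene Acadm at 149 ± 3.73 and 101 ± 13.3 CPM (-0.57), and the long-chain gene Acadl at 508 ± 1.91 and 386 ± 36.6 CPM (-0.39), all with an adjusted p below 0.05.

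Highly expressed genes had a lower median as a whole, which touches these small differences. In the 10% of tested genes with the highest mean level, from 146 CPM upwards, the median log2 fold change was -0.22. Genes of oxidative phosphorylation, of which 62 of 74 were that abundant, had a median of -0.36, with none called by edgeR and 51 lower at the adjusted p alone. The cytosolic ribosomal proteins, used as a reference with no link to mitochondria, had a median of -0.41, with 69 of 74 that abundant, none called and 64 lower at the adjusted p alone. After quantile normalization of the FPKM (fragments per transcript length and library size), the medians were -0.12 and -0.11, beside -0.10 for the most abundant 10%. Fatty acid oxidation kept a median of -0.36 on that scale. The shortest 10% of transcripts had a median of -0.17 and the longest 10% one of 0.08. The part of level and length in the small falls was not tested.

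In carbohydrate and energy metabolism, Slc2a4, the insulin-regulated glucose transporter GLUT4, fell from 71.1 ± 5.7 to 29.8 ± 2.89 CPM (SD, n = 3; log2 fold change -1.25), and Eno3, the muscle enolase, from 127 ± 3.24 to 50.6 ± 2.37 CPM (-1.33). The glycolytic list of 54 genes had a median of -0.28 with 3 called lower (5 without siSlc39a2 replicate 2) and 1 higher. Ogdhl, which resembles the oxoglutarate dehydrogenase subunit of the citric acid cycle, fell from 26.4 ± 0.334 to 9.73 ± 1.05 CPM (-1.44). Ckb, the brain-type creatine kinase, stood at 368, 342 and 332 CPM in siNeg and 122, 127 and 125 CPM after silencing (log2 fold change -1.48, standard error 0.07), and the groups lay far apart for their spread. Ampd1, the muscle adenylate deaminase, had 11, 15 and 18 counts in siNeg and none in siSlc39a2, at least 5.31-fold lower. Genes of purine, NAD and amino acid handling included the largest metabolic increases. Xdh, which makes uric acid from xanthine, stood at 7.66, 10.3 and 12.1 CPM in siNeg and at 79, 71.3 and 73 CPM in siSlc39a2 (log2 fold change 2.89, standard error 0.14). The NAD genes moved in opposite directions: Nampt, the rate-limiting enzyme of NAD salvage, rose from 17.2 ± 1.79 to 63.3 ± 9.02 CPM (1.88), and Nmrk2, the muscle nicotinamide riboside kinase, fell from 16 ± 5 to 5.12 ± 0.936 CPM (-1.64). Ass1, which makes argininosuccinate for arginine synthesis, rose from 1.47 ± 0.575 to 10.2 ± 3.23 CPM (2.79), with siSlc39a2 samples between 6.63 and 13 CPM.

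Regulators of metabolism were mostly below the threshold. Of 33 nuclear receptors, coactivators and kinases of this kind, 1 was called: Prkaa2, the catalytic alpha 2 subunit of AMP-activated kinase, at 31.5, 42.8 and 41.1 CPM in siNeg and 90.9, 85.6 and 110 CPM in siSlc39a2 (1.31). Ppargc1a, the mitochondrial biogenesis coactivator, stood at 27 ± 3.11 and 30.8 ± 1.9 CPM (log2 fold change 0.19, adjusted p = 0.173 from edgeR, and -0.08 or -0.10 with limma on FPKM). Ch25h, which makes 25-hydroxycholesterol, was the 1 called gene of 43 in sterol and fatty acid synthesis, from 0.467 ± 0.159 to 1.54 ± 0.195 CPM (1.72).

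Zinc genes other than Slc39a2 passed the adjusted p about as often as all genes. At that cut alone 5 of 22 were higher and 6 lower, beside 22.8% and 26.4% of all genes. Of these 22 transporters, metallothioneins and their regulator Mtf1, none was called higher and 1 (4.55%) lower, beside 4.57% and 5.21% of all genes. The lower gene was the brain-type metallothionein Mt3, from 1.04 ± 0.239 to 0.205 ± 0.158 CPM (-2.33). Without siNeg replicate 1 or 2, or without siSlc39a2 replicate 2 or 3, the list had 2 called lower. The zinc-induced genes Mt1, Mt2A and Slc30a1, chosen after their values were seen, had log2 fold changes of 0.32 (adjusted p = 0.221), 0.69 (adjusted p = 0.0136) and 0.33 (adjusted p = 0.0122, all from edgeR), and Mt2A shared reads with other genes. The groups overlapped for Mt1. These genes are commonly used as readouts of cellular zinc. The paper reported lower zinc staining in NRVMs after silencing of Slc39a2, and how these transcripts relate to it was not tested.

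**Figure D4:**
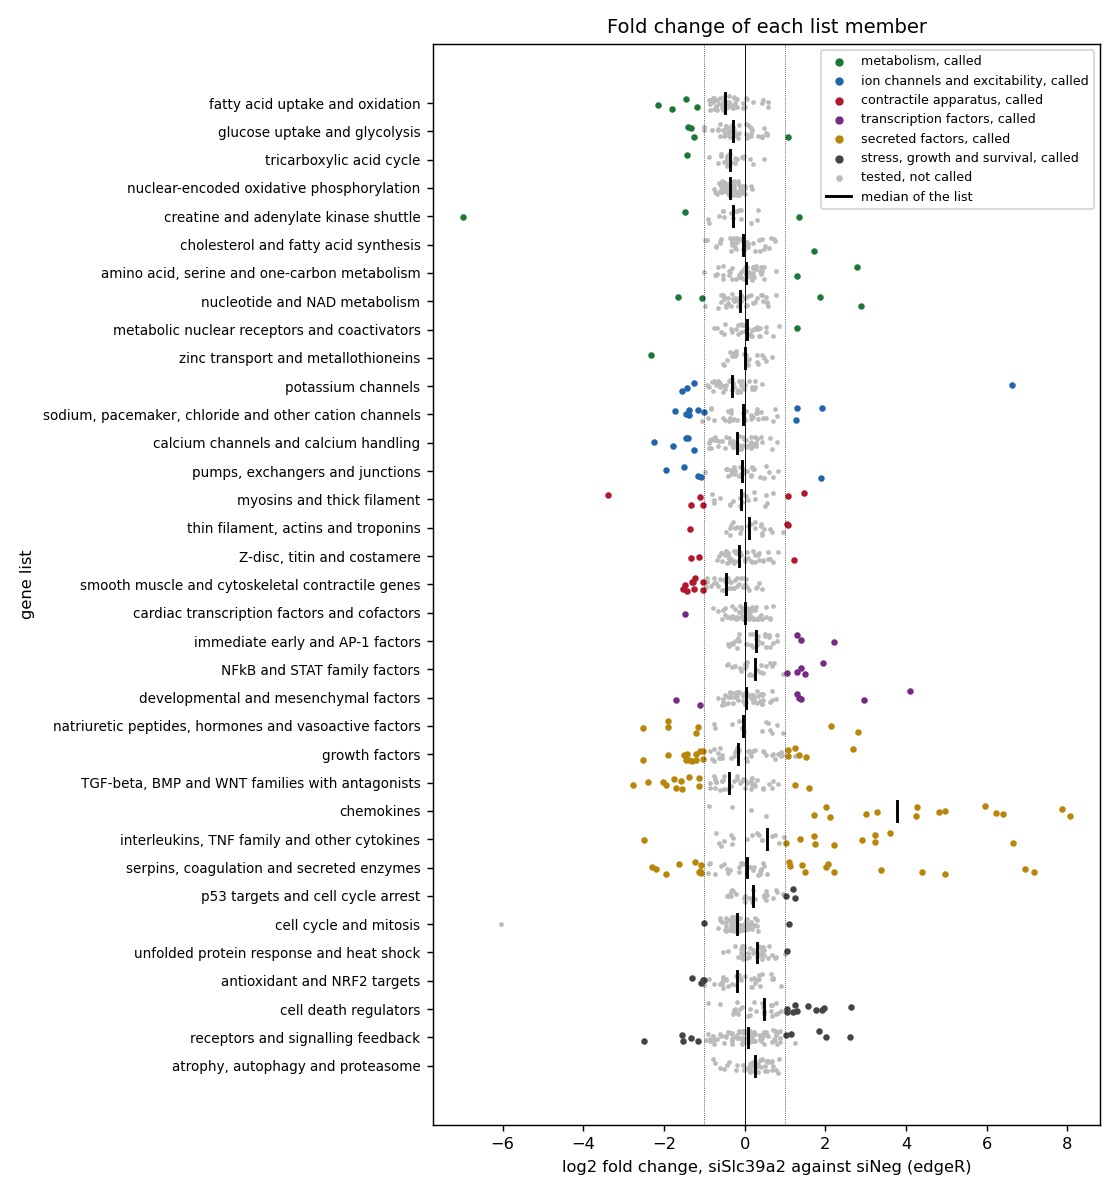
Log2 fold change (siSlc39a2 against siNeg) of every tested member of 35 gene lists in 6 areas, with called genes in colour, others in grey, list medians as black bars and dotted lines at -1 and 1. Chemokines lie far to the right with a median of 3.77, the medians of the metabolic lists lie between -0.48 and 0.06, and the median over all genes is -0.02.

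Ion channel and excitability genes were called lower more often than higher, 18 (9.89%) against 5 (2.75%) of 182 tested (5.21% and 4.57% of all genes), with a median log2 fold change of -0.18. Kcnt1, described above, was the 1 member raised from near zero. Among sodium channel genes, Scn4b, a beta subunit that alters sodium current gating, stood at 127, 133 and 127 CPM in siNeg and 50.8, 48.5 and 48.1 CPM in siSlc39a2 (log2 fold change -1.39, standard error 0.08). Scn4a, the skeletal muscle alpha subunit, fell from 1.63 ± 0.356 to 0.624 ± 0.137 CPM (-1.37), and the beta subunit gene Scn3b rose from 0.752 ± 0.142 to 1.82 ± 0.503 CPM (1.28). Of the potassium channel genes, Kcnab2, a beta subunit, fell from 3.63 ± 0.449 to 1.52 ± 0.351 CPM (-1.25) and Kcnh1 from 1.62 ± 0.141 to 0.593 ± 0.148 CPM (-1.44). Kcnip2, which sets the transient outward current, stood at 157 ± 35 and 53.4 ± 1.39 CPM (-1.55), with reads shared with other genes. The calcium-activated cation channel gene Trpm4 fell from 26.9 ± 1.44 to 12 ± 1.14 CPM (-1.16).

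Of 58 calcium channel and calcium handling genes, none was called higher by edgeR and 5 (8.62%) were called lower, beside 4.57% and 5.21% of all genes. Their median log2 fold change was -0.19. At the adjusted p alone 8 were higher and 26 lower, beside 22.8% and 26.4% of all genes. Camk2b, a calmodulin kinase isoform, stood at 8.06, 6.93 and 7.09 CPM in siNeg and 1.59, 1.63 and 1.44 CPM in siSlc39a2 (log2 fold change -2.24, standard error 0.15). Atp2a1, the calcium pump of fast skeletal muscle, fell from 3.55 ± 0.181 to 1.03 ± 0.11 CPM (-1.78), and Fkbp1b, which binds the ryanodine receptor, from 2.91 ± 0.268 to 1.1 ± 0.0859 CPM (-1.40). The cardiac pump gene Atp2a2 stood at 7967 ± 672 and 6515 ± 149 CPM (SD, n = 3; -0.29, adjusted p = 0.00877 from edgeR), but its difference was 0.04 on quantile-normalized FPKM, so no direction is given. Pln, the inhibitor of that pump, stood at 2756 ± 477 and 3372 ± 63.7 CPM (0.29, adjusted p = 0.0556), and Ryr2, the sarcoplasmic release channel, at 714 ± 179 and 547 ± 23.3 CPM (-0.39, adjusted p = 0.0544, both from edgeR). The groups overlapped for both, with siNeg replicate 1 apart from the other siNeg samples.

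Of 36 pump, exchanger and junction genes, 1 (2.78%) was called higher and 4 (11.1%) lower, beside 4.57% and 5.21% of all genes, with a median log2 fold change of -0.06. The higher gene was the connexin gene Gjd3, at 5.21, 4.89 and 4.77 CPM in siNeg and 19.5, 17.8 and 17.7 CPM in siSlc39a2 (log2 fold change 1.89). Its groups lay far apart for their spread.

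Contractile genes were called in both directions, 5 (3.50%) higher and 16 (11.2%) lower of 143 tested (4.57% and 5.21% of all genes), with a median log2 fold change of -0.18. In the thick filament, the adult alpha myosin gene Myh6 fell from 15858 ± 1902 to 7407 ± 501 CPM (-1.10) and the beta myosin gene Myh7 stood at 13917 ± 847 and 13448 ± 315 CPM (-0.05, adjusted p = 0.564 from edgeR). Both share reads with near-identical genes and are uncertain. Myh6 kept its direction but lost its call with limma on FPKM, and Myh7 was at 0.51 on quantile-normalized FPKM and at 0.01 without siSlc39a2 replicate 3. Myl4, the atrial essential light chain, fell from 89.4 ± 10.9 to 35.6 ± 2.55 CPM (-1.33), and Mybpc2, the fast-type myosin binding protein C, rose from 2.43 ± 0.701 to 6.77 ± 0.626 CPM (1.48). In the thin filament, Cap2, which encodes an actin-binding protein, rose from 108 ± 4.71 to 223 ± 8 CPM (1.05), and Abra, an activator of SRF signalling, from 9.05 ± 0.688 to 19 ± 2.03 CPM (1.07). The skeletal actin gene Acta1 fell from 695 ± 43 to 272 ± 19.2 CPM (-1.35), with shared reads. At the Z-disc, the stretch-responsive gene Ankrd1 stood at 340, 360 and 389 CPM in siNeg and 789, 785 and 966 CPM in siSlc39a2 (1.22). Ky and Klhl40, which maintain the Z-disc and thin filament, fell from 78.2 ± 1.77 to 30.8 ± 1.12 CPM (-1.34) and from 27.2 ± 3.03 to 12.3 ± 1.19 CPM (-1.14).

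Smooth muscle and cytoskeletal contractile genes were mostly lower, with 9 of 44 called lower (20.5%, beside 5.21% of all genes), none higher and a median of -0.47. Tagln stood at 679, 665 and 655 CPM in siNeg and 266, 272 and 272 CPM in siSlc39a2 (-1.30), and Stmn1, which destabilizes microtubules, fell from 116 ± 10.2 to 40.3 ± 1.51 CPM (-1.52). The smooth muscle actin gene Acta2 fell from 1252 ± 32.4 to 467 ± 3.98 CPM (-1.42), with shared reads. Many of these genes are targets of SRF, whose own transcript stood at 259 ± 6.11 and 192 ± 4.84 CPM (Srf, -0.44). Of the promoters of contractile genes, 10 of 115 (8.7%) held a CArG box, the sequence SRF binds, against 1.64% of all promoters. Among those of called lower genes 1 of 13 (7.69%) held one, near the share of all contractile genes. The smooth muscle and pericyte marker list itself holds Acta2 and Tagln, so its lower sum is no separate observation. Neither the part of such cells nor that of SRF in these falls was tested.

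**Figure D5:**
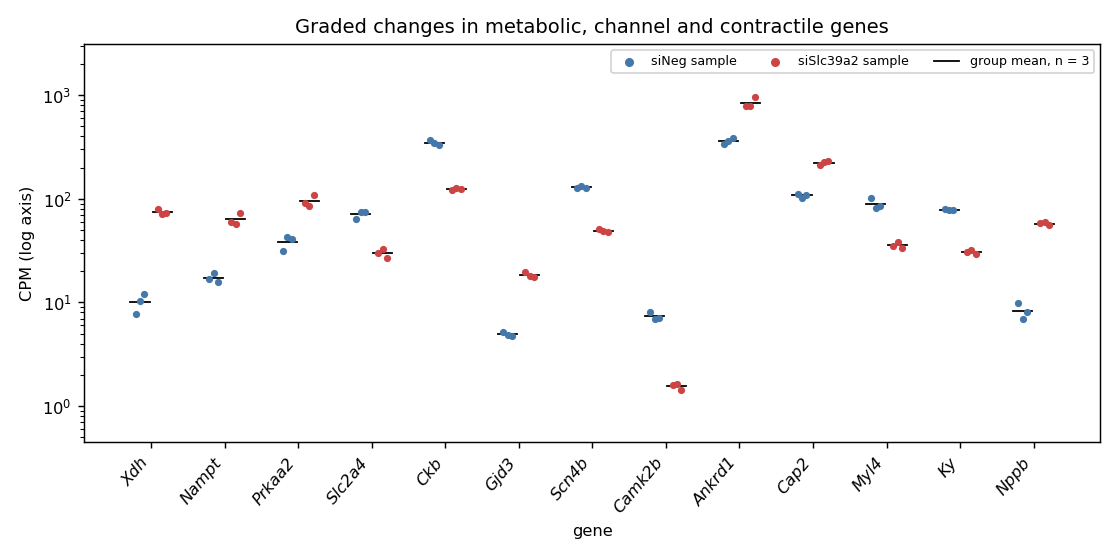
CPM (log axis) in each of the 3 siNeg (blue) and 3 siSlc39a2 (red) samples for 12 graded genes of metabolism, excitability and contraction and for Nppb, with group means as lines. Genes of the lists were named only where the groups did not overlap, so the gaps shown here are no result. Xdh lies at 7.66 to 12.1 and 71.3 to 79 CPM, and Gjd3 at 4.77 to 5.21 and 17.7 to 19.5 CPM.

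Transcription factor genes were called higher more often than lower, 13 (7.39%) against 3 (1.70%) of 176 tested (4.57% and 5.21% of all genes), and 12 of the 13 were graded. Cardiac factors were the exception: of 56 tested, none was higher and 1 was lower, Epas1 (HIF-2 alpha), at 361, 369 and 392 CPM in siNeg and 133, 131 and 138 CPM in siSlc39a2 (log2 fold change -1.48, standard error 0.06). Of the NFkB and STAT families 5 of 28 were higher, including inhibitors of the pathway. Nfkbia, encoding the inhibitor that holds NFkB in the cytosol, rose from 34.5 ± 4.23 to 97.4 ± 6.77 CPM, and Tnfaip3, the ubiquitin-editing enzyme A20, from 12.9 ± 0.755 to 49.3 ± 5.94 CPM (1.94). Of the immediate early genes 3 of 32 were higher, Csrnp1 from 15.2 ± 2.27 to 37.5 ± 4.27 CPM (1.30), and Atf3 and Fos by 2.22 and 1.41, the last 2 with some shared reads. Among developmental factors 3 Id genes, inhibitors of basic helix-loop-helix factors and known targets of BMP signalling, rose. Id4 stood at 1.42, 1.59 and 1.06 CPM in siNeg and 10.4, 9.55 and 11.9 CPM in siSlc39a2 (2.96), while Id1 and Id3 rose by 1.29 and 1.34. Bmp2 also rose (below), and whether the Id genes responded to BMP signalling was not tested. The forkhead gene Foxf1 rose from near zero, from 0.079, 0.0379 and 0.118 CPM to 1.31, 1.29 and 1.68 CPM, at least 12.2-fold. Foxs1 rose from 6.99 ± 0.218 to 18.4 ± 2.15 CPM (1.40), and the mesenchymal homeobox gene Prrx2 fell from 11.1 ± 0.814 to 3.42 ± 0.466 CPM (-1.69).

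Secreted factors were the area with the largest share of called genes, 46 (20.8%) higher and 38 (17.2%) lower of 221 (4.57% and 5.21% of all genes). Of the called genes 1, Isg15, was also in the interferon list. The area also held 9 of the 11 members of any functional list that were raised from near zero. Chemokines led it, with 14 of 18 higher, none lower and a median log2 fold change of 3.77. They came from all 3 classes. Ccl12 had no counts in siNeg and 1.24, 0.914 and 1.01 CPM in siSlc39a2, at least 9.06-fold higher. Ccl4 rose from a low level, 0.349 ± 0.109 to 30.1 ± 2.14 CPM (6.41). Ccl2, the monocyte attractant, rose in a graded way from 28.3, 28.3 and 25.8 CPM to 546, 509 and 507 CPM (4.24), as did Ccl7, from 5.3 ± 0.402 to 168 ± 16.4 CPM (4.98), and the neutrophil attractant Cxcl1, from 2.51 ± 0.258 to 20.2 ± 1.59 CPM (3.01). Per transcript length, Ccl7 reached 244 FPKM in siSlc39a2, above the 109 FPKM of Nppb. Of 28 interleukins, TNF family members and related proteins, 10 were higher and 1 was lower. The chitinase-like protein gene Chi3l1 rose from 0.778 ± 0.0486 to 9.51 ± 2.47 CPM (3.61), and the pentraxin gene Ptx3 from 6.55 ± 1.5 to 21.8 ± 1.42 CPM (1.73).

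Hormone-like factors went both ways. Nppb, the gene of brain natriuretic peptide and a marker of myocyte stress, stood at 9.83, 6.86 and 8.04 CPM in siNeg and 57.8, 59.5 and 55.8 CPM in siSlc39a2 (log2 fold change 2.81, standard error 0.17). Nppa rose less, from 99.9, 114 and 120 CPM to 202, 233 and 217 CPM (0.96, adjusted p = 9.02e-05 from edgeR), just under the threshold on fold change, and was at 1.02 without siNeg replicate 3 or without siSlc39a2 replicate 3 and at 1.01 without siSlc39a2 replicate 1. Per length, Nppa stayed above Nppb, at 313 against 109 FPKM in siSlc39a2. Of the complement-related adipokines, C1qtnf1 rose from 16.7 ± 1.62 to 73.2 ± 6.39 CPM (2.13) and C1qtnf6 fell from 190 ± 15.7 to 51.2 ± 2.71 CPM (-1.89). Fgf21, a stress-induced metabolic hormone, fell from 1.96 ± 0.489 to 0.528 ± 0.164 CPM (-1.89).

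Growth factors and their modulators fell more often than they rose. Of the growth factor list 6 of 57 were higher and 12 lower, and of the TGF-beta, BMP and WNT list 2 of 52 were higher and 11 lower (median -0.38). The shares of all genes were 4.57% and 5.21%. Among insulin-like growth factor genes, of which Igf1 and Igf2 were chosen after their values were seen, Igf1 fell from 18.3 ± 0.694 to 7.97 ± 1.55 CPM (-1.20), Igf2 from 12 ± 0.304 to 4.65 ± 0.74 CPM (-1.37), and the binding proteins Igfbp5 and Igfbp6 by 2.53 and 1.90 on the log2 scale. Tgfb1 fell from 79.6 ± 9.31 to 36.7 ± 2.65 CPM (-1.12) and midkine (Mdk) from 41.9 ± 9.81 to 15.3 ± 1.44 CPM (-1.45). Wnt4, at 1.34, 1.48 and 1.85 CPM in siNeg and 0.242, 0.339 and 0.078 CPM in siSlc39a2, had the largest fall of its list (-2.77), followed by the WNT antagonist Frzb (-2.39) and the BMP antagonist Chrd (-2.02). Against these, Bmp2 rose from 3.74 ± 0.144 to 11.3 ± 1.12 CPM (1.59), the activin antagonist Fst from 0.999 ± 0.14 to 2.4 ± 0.349 CPM (1.26), the EGF receptor ligand Areg from 0.379 ± 0.202 to 2.47 ± 0.12 CPM (2.69) and the matricellular gene Wisp1 from 9.39 ± 1.57 to 24 ± 2.82 CPM (1.35). Of 46 serpins, coagulation factors and secreted enzymes, 12 were higher and 9 lower. Pla2g2a, a secreted phospholipase, stood at 0.158, 0.227 and 0.236 CPM in siNeg and 7.81, 7.15 and 4.83 CPM in siSlc39a2 (4.96), and the protease gene Htra3 fell from 33.9 ± 1.09 to 8.76 ± 0.206 CPM (-1.95). Several of the falling factors are made by fibroblasts, whose marker sum, partly of matrix genes, was lower as given above. The part of those cells was not tested.

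Genes of stress, growth and survival were called higher in 20 of 343 (5.83%) and lower in 10 (2.92%), beside 4.57% and 5.21% of all genes. Regulators of cell death were called higher more often than lower, with 10 of 40 higher, none lower and a median log2 fold change of 0.48. Ripk3, a kinase of necroptosis, stood at 4.54, 5.95 and 4.69 CPM in siNeg and 19.4, 20.4 and 18.1 CPM in siSlc39a2 (1.93), Casp12 rose from 1.75 ± 0.352 to 5.93 ± 0.746 CPM (1.76) and Casp8 from 1.53 ± 0.144 to 4.57 ± 0.888 CPM (1.57). The BH3-only gene Pmaip1 and the kinase gene Plk2, both p53 targets, rose by 1.26 and 1.21. Of 65 cell cycle genes 1 was called lower, E2f1, whose call is weak (below), and 1 higher, with a median of -0.20. At the adjusted p alone 13 were lower and 2 higher, beside 26.4% and 22.8% of all genes. The gene called higher was Ccnd1 (cyclin D1), from 42 ± 2.49 to 90.4 ± 1.02 CPM (1.10). No gene of the proteasome, autophagy and atrophy list was called, but 25 of 44 were higher and 5 lower at the adjusted p alone. Its 27 proteasome subunits, grouped after their values were seen, had a median of 0.40, with 19 higher and none lower at the adjusted p alone, against 22.8% of all genes higher. Psma5 rose from 82.7 ± 7.85 to 150 ± 3.75 CPM (0.86). Of the NRF2 and antioxidant list 4 of 39 were called lower, among them Nqo1, a quinone reductase, from 233 ± 27.1 to 94.1 ± 4.91 CPM (-1.31). Of 88 receptors and feedback regulators 5 were higher and 5 lower (5.68% each, near the shares of all genes). The nucleotide sugar receptor gene P2ry14 rose from 0.48 ± 0.0111 to 2.95 ± 0.445 CPM (2.61) and the G protein regulator Rgs16 from 2.15 ± 0.291 to 8.69 ± 0.724 CPM (2.01). The endothelin receptor gene Ednrb fell from 1.44 ± 0.222 to 0.252 ± 0.0983 CPM (-2.50), Fgfr4 from 1.97 ± 0.398 to 0.669 ± 0.0664 CPM (-1.56), Notch3 from 62.6 ± 11.2 to 21.8 ± 2.27 CPM (-1.52) and the angiotensin receptor gene Agtr1a from 5.84 ± 0.901 to 2.63 ± 0.384 CPM (-1.15).

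A further 8 named genes lay close to the threshold, and their calls depended on single samples. Arrdc4 had a log2 fold change of 1.08, and 0.99 without siNeg replicate 1. Myl7 (-1.03) was at -0.91 without siNeg replicate 1 and -0.99 without siSlc39a2 replicate 3. Gli2 (-1.10) lost its call without siNeg replicate 3 and was at -0.94 without siSlc39a2 replicate 3, and Sod3 (-1.04) at -0.96 without the latter. Ppp1r15a (1.06) was at 1.00 without siSlc39a2 replicate 1. Ckmt1 (1.35) lost its call without siNeg replicate 3 (1.03) or siSlc39a2 replicate 1 (1.25). Mybphl (1.07) lost it without siNeg replicate 2, siNeg replicate 3 or siSlc39a2 replicate 2, with values between 0.79 and 0.92, and E2f1, which lay at the threshold, in 4 of the 6 fits, with values between -0.98 and -0.93. With all samples kept, E2f1 also lost its call with DESeq2, RLE size factors, no filter on low counts and the 2 groups alone. Myl7 and Sod3 lost theirs without that filter. Single samples also moved some list counts. Without siSlc39a2 replicate 3, 10 in place of 6 growth factor genes were higher, and without that sample or siNeg replicate 1, 2 in place of 4 antioxidant genes were lower. Without siSlc39a2 replicate 2, 2 in place of 1 of the interleukin and TNF family list were lower, and without siSlc39a2 replicate 1, 6 in place of 3 potassium channel genes were lower.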

How the data were processed

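RNA-seq of the 12 samples was deposited by the authors as tables of expected counts per gene (estimates, not whole for all genes, reads matching several genes shared between them) and of FPKM values. The submitters' processing notes name HISAT, Bowtie2 and Rnor_6.0, and the counting program is not given in the sources used here. Counts were rounded, filtered with filterByExpr, scaled by TMM and fitted for 4 groups with edgeR 4.0.16 (R 4.3.3), leaving 8 residual degrees of freedom, and siSlc39a2 was compared with siNeg in its quasi-likelihood test, p-values being adjusted by Benjamini-Hochberg over 13967 genes. On simulated counts the fit was checked against 200 changed genes. Counts were whole (within 0.01) in all 6 samples for 69.6% of tested genes, and the others share reads. Named genes were 10 set by name, the 2 highest and 2 lowest called genes of each functional list, and the 10 most extreme of each class outside the interferon and matrix lists. They needed whole counts, non-overlapping groups for the lists, and at least 1 CPM (list) or 10 CPM (graded). Another 44 were chosen after their values were seen, and some genes are not reported here. Members and lists were chosen with earlier results of these data known. Alternatives were DESeq2 1.42.0, RLE size factors, no filter, 2 groups alone, a replicate block, limma 3.58.1 on quantile-normalized log2(FPKM + 1) and log2(FPKM + 0.1), and leaving out each sample. Promoters were matched by gene identifier, with the first entry of each gene used. Each count floor covers counting error only.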

Additional observations from a re-analysis of the deposited data

Results flagged for a closer look

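For 25 of the 149 named genes the effect of the knockdown differed with PE (interaction term of edgeR, adjusted p below 0.05), beside 3.61% of all 13967 tested genes. Many named genes were chosen for a large change without PE, which the difference subtracts, so neither the count nor the direction of these differences is read as a result. The values are the log2 fold change of siSlc39a2 against siNeg with PE less that without PE.

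Among genes raised without PE the difference was -2.86 for Pla2g2a (4.96 without and 2.10 with PE), -2.26 for Foxf1, -1.67 for Id4, -1.37 for Ass1, -0.94 for Cxcl1, -0.82 for Fos, -0.81 for Apol9a, -0.75 for Xdh, -0.67 for Abra, -0.62 for C1qtnf1, -0.58 for Ppp1r15a and -0.36 for Pml. Values were also lower with PE for the channel and pump genes Scn4b (-1.52, from -1.39 without to -2.91 with PE) and Atp2a2 (-0.50), the Z-disc gene Ky (-1.36), and the class II genes Ciita and Cd74 (-1.23 each). Among genes lower without PE it was 1.42 for Acta1 (-1.35 without and 0.06 with PE), 1.29 for Acta2, 1.25 for Tagln, 1.30 for Cemip, 1.27 for Camk2b, 0.97 for Ckb and 0.46 for Srf. Ampd1 gave 5.35, a fitted value that depends on the prior count, since the siSlc39a2 samples without PE had no counts. Groups of 3 samples are too small for a check on single outlying samples.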

How the results depend on the processing

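Of the 149 named genes, between 143 and 149 kept direction and call with DESeq2, RLE size factors, no filter, the 2 groups alone, the replicate block and with each sample left out (148 could be compared for the 2 groups alone), and 109 and 135 did with limma on log2(FPKM + 1) and log2(FPKM + 0.1). The former, whose pseudocount shrinks low genes, gave 328 genes higher and 282 lower, metabolism 4 higher, ion channels 2 higher and 8 lower, contractile genes 3 higher, secreted factors 26 higher, and stress, growth and survival 7 higher and 2 lower. With log2(FPKM + 0.1) ion channels had 2 higher. Abundant genes lost calls as well, Myh6 and Myl7 in both FPKM fits. Taking every siNeg sample below 1 CPM as near zero gave 264 genes in place of 75. Direction turned for Atp2a2 (0.04 in both FPKM fits), Myh7 (0.51 in both, and -0.09 to 0.01 with each sample left out, the latter without siSlc39a2 replicate 3), Ppargc1a (-0.08 and -0.10) and Ciita (-0.02 to 0.21 with each sample left out, the former without siSlc39a2 replicate 1), and the cause was not tested. With each sample left out, 636 to 673 genes were higher and 675 to 747 lower, and 78 to 98 were near zero, where leaving out a siNeg sample loosens the class by its construction. The replicate block gave 651 higher and 735 lower genes and -2.33 for Slc39a2, and changed no call of a named gene. Same-numbered siNeg and siSlc39a2 samples did not deviate together (correlations -0.0107, 0.00409 and 0.025). The labels tie them by number alone, and groups of 3 samples cannot show whether same-numbered samples shared a preparation. The limit of 3 counts, 0.117 CPM in siNeg, was chosen and is no measured limit of detection. Genes below it can still be present at a low level, as with Misp at 2 counts in every siNeg sample. Without a second siRNA, off-target effects of the 1 sequence cannot be told apart from loss of Slc39a2.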

Other observations

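Some further genes, outside the lists of the 6 functional areas, are given as values and were chosen after these were seen. Star and Cyp11a1, the first steps of steroid hormone synthesis, fell together. Star stood at 9.52, 7.99 and 5.08 CPM in siNeg and 0.726, 1.56 and 1.48 CPM in siSlc39a2 (log2 fold change -2.59), and Cyp11a1 at 9.83, 6.74 and 7.6 CPM and 1.52, 1.56 and 1.75 CPM (-2.32). Both bradykinin receptor genes rose from near zero, Bdkrb1 at least 3.03-fold and Bdkrb2 at least 4.1-fold, with 7 to 13 and 11 to 15 counts in the siSlc39a2 samples.

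Sprr1a, a small proline-rich protein of epithelia that is also induced in stressed myocytes, and Skor1, a transcriptional corepressor of neurons, had no counts in siNeg. They reached 3.66, 1.86 and 2.18 CPM and 2.04, 1.39 and 1.75 CPM in siSlc39a2, at least 22-fold and 14.8-fold higher. Slc4a1, the anion exchanger of red blood cells, rose from 0.246 ± 0.159 to 8.05 ± 1.43 CPM (SD, n = 3), while Alas2, another red blood cell marker, had no more than 3 counts in any sample. Otof, the otoferlin gene, went the other way, with 16, 21 and 35 counts in siNeg and none in siSlc39a2, at least 8.71-fold lower.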
